A study of Mus musculus with 12 samples.

Results

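The lipid droplet genes described here are Plin2, Plin3, Plin4, Plin5, Cidea, Cideb, Cidec, Fitm1, Fitm2 and G0s2, 10 genes of 22855 in the table of liver transcripts. The rule takes them by name and sets no threshold on a measured value, although they were proposed with earlier results of these data known. Liver RNA was sequenced from 12 male C57BL/6J mice that started a diet at 5 weeks of age and were 21 weeks old after 16 weeks on it. The ND group (n = 3) ate a normal diet and the HFD group (n = 3) a high-fat diet. The CLE group (n = 3) ate the high-fat diet with 1.5% by weight of an ethanol extract of chrysanthemum leaves, and the LU group (n = 3) ate it with 0.003% luteolin, a flavonoid of those leaves. The CLE and LU groups therefore carried the high-fat diet as well, and both were set against the same 3 HFD mice. The study's methods call the 3 sequenced mice of a group representative and give no rule for their choice.

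A lipid droplet is a store of triacylglycerol and cholesteryl ester that buds from the endoplasmic reticulum and is wrapped in a single layer of phospholipid and protein. Perilipins (Plin genes) coat it and govern how lipases reach the fat inside, CIDE proteins pass lipid from small droplets to large ones, FIT proteins (Fitm genes) help droplets bud, and G0s2 holds back adipose triglyceride lipase. Fatty livers are known for large droplets and for genes of this set that are otherwise typical of adipose tissue.

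Levels are in FPKM, fragment numbers per unit of transcript length and of library size, summed over the transcripts of a gene, so that levels of different genes can be compared per length. Groups were compared by limma's moderated test on log2(FPKM + 1) across all genes whose mean over the 12 livers was 0.5 FPKM or more, and a gene was called at a Benjamini-Hochberg adjusted p of 0.05. The table files transcripts under the name of a locus, and this rule by name found 8 of the 10 genes. The transcripts of Plin5 were filed under the name Plin4 and those of Plin3 under the name Ticam1, the gene next to it. Transcripts were therefore also assigned by their reference transcript in the GENCODE M21 annotation, a choice made after the table was seen, which separated all 10. Below, Plin3, Plin4 and Plin5 come from that second sum and the other 7, whose levels were equal in both, from the sum by name. By name, 2 of 8 genes were called in HFD against ND, where 12.1% of all genes tested were called, and by reference transcript 4 of 10, where 11.8% were. All of these were higher in HFD livers. The median difference of the 10 was 0.29 on the log2 scale, and 0.11 over all genes tested.

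The libraries differed in ways that touch every comparison. The median gene was 0.11 higher in HFD than in ND livers on the log2 scale. As an alternative, each library was divided by the median ratio of its genes to their geometric means over the libraries (median-of-ratios scaling, below median scaling). This brought the difference to -0.01 and changed the calls over all genes from 1167 higher and 243 lower to 607 higher and 497 lower. Against ND, the median gene was 0.16 higher in CLE and 0.12 higher in LU livers, with 2469 higher and 733 lower calls in CLE that became 1227 and 1675 after scaling, and 1305 and 443 in LU that became 732 and 1070. Across 7378 genes, the deviation of a library from the mean followed the GC content of the transcript with a Spearman's rho of -0.41 to -0.128 in the 6 ND and HFD libraries and of 0.185 to 0.506 in the 6 CLE and LU libraries, so that GC content and supplement cannot be told apart. In whole liver, fewer cells of a type and less RNA per cell cannot be told apart either. Hepatocyte genes were abundant in all groups (Apoa1, a lipoprotein component, at 3708 to 6775 FPKM by group mean), although albumin was listed at 0 in 11 of 12 livers, so a 0 in this table can be a failed estimate.

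Among the 10 genes, the largest changes on the high-fat diet were those of Cidea and Plin4, and Plin2, the most abundant of the 10 genes, was not called in any comparison. Cidea went from near the limit of the table to a level like that of Plin3, and Plin4 went from rank 9 to rank 6 in the order of levels. Fitm1 and Plin3 rose less. Of these 4 genes, none was called lower in CLE or LU livers than in HFD livers.

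**Figure D1:**
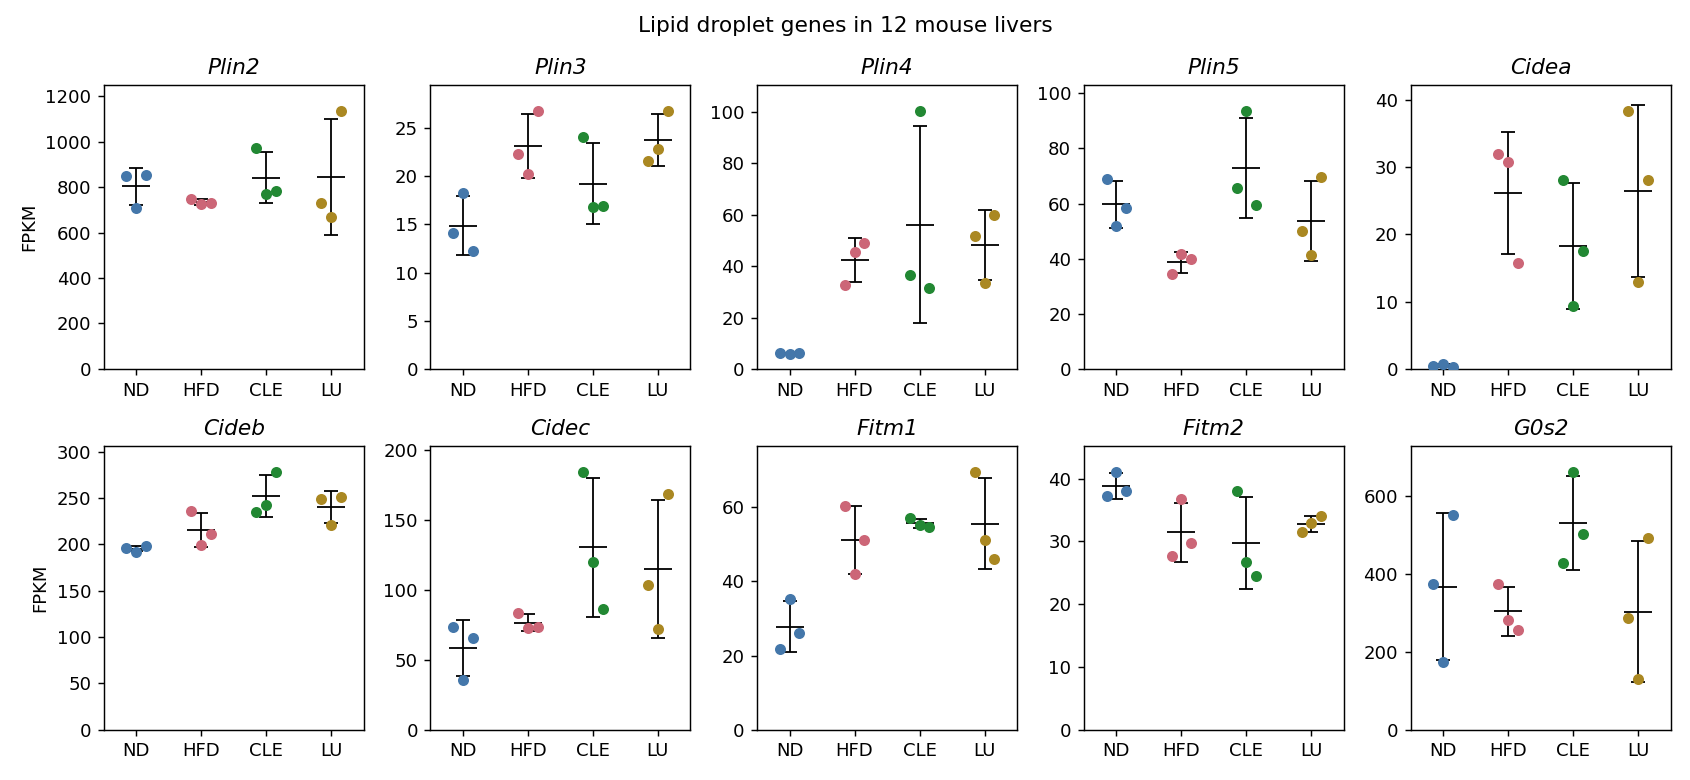
Level of each lipid droplet gene (vertical axis, FPKM, from 0) in each of 12 livers, by diet group. Points are mice, the long dash is the group mean and the bars are ± SD (n = 3). Cidea and Plin4 lay far lower in the 3 ND livers than in the other 9, and Plin2 lay between 667 and 1136 FPKM in all 4 groups.

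**Figure D2:**
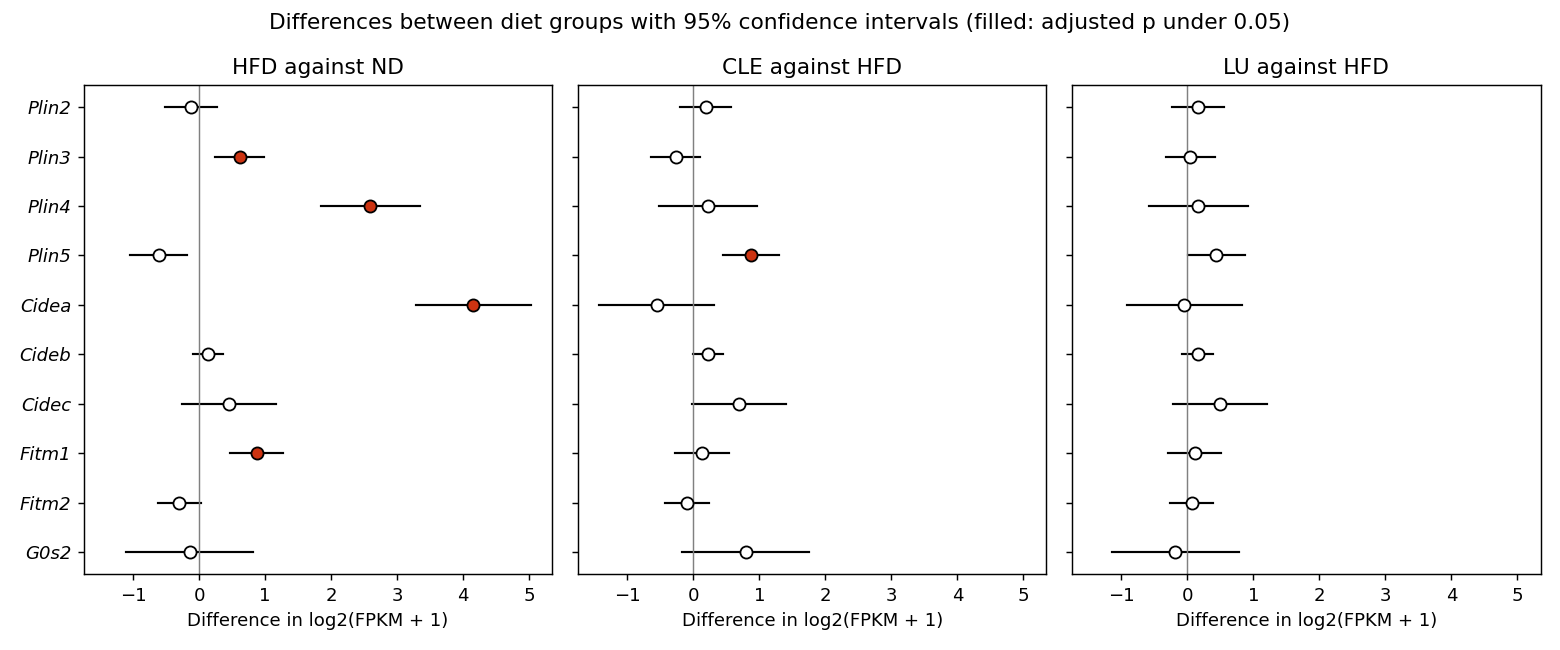
Difference between groups for each gene (horizontal axis, log2(FPKM + 1)) with its 95% confidence interval from limma, for the high-fat diet against the normal one (HFD against ND) and for each supplement against HFD. Filled points passed an adjusted p of 0.05, which were Plin3, Plin4, Cidea and Fitm1 in the first panel, Plin5 in the second and none in the third.

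Plin2 (chromosome 4, 86648386-86670060, minus strand, on GRCm38) encodes adipophilin, the main droplet coat protein of hepatocytes. Its level was 847, 706 and 854 FPKM in the ND livers, 749, 724 and 732 in the HFD livers, 970, 771 and 783 in the CLE livers and 731, 667 and 1136 in the LU livers. All groups overlapped except CLE and HFD, where the lowest CLE liver stood above the highest HFD liver. The difference of HFD from ND was -0.12 on the log2 scale (95% confidence interval -0.51 to 0.27, adjusted p = 0.718, limma), that of CLE from HFD 0.19 (-0.20 to 0.58, adjusted p = 0.509) and that of LU from HFD 0.16 (-0.23 to 0.55, adjusted p = 0.631). Plin2 made up 90.3% to 91.7% of the summed perilipin FPKM in ND livers and 86.4% to 89.4% in HFD livers.

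The Plin2 sum was made of unlike parts. The main annotated transcript held 451 to 587 FPKM in ND livers, 468 to 537 in HFD, 630 to 729 in CLE and 614 to 910 in LU livers, so every CLE and LU liver stood above every HFD liver. Assembled transcripts that run past the annotated 3′ end of the gene held 25.2% to 33.3% of the sum in the 6 ND and HFD livers, 0% to 23.8% in CLE livers and 3.41% to 16.1% in LU livers. With annotated transcripts alone, the difference from HFD was 0.49 in CLE (adjusted p = 0.0835, limma) and 0.54 in LU (adjusted p = 0.104), still not called. The share of each transcript is an estimate of the assembly, and its relation to the GC content of the libraries was not tested.

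Plin3 (chromosome 17, 56277476-56292873, minus strand) encodes TIP47, a cytosolic perilipin that coats young droplets. It was 14.1, 18.2 and 12.2 FPKM in ND livers, 22.3, 20.2 and 26.7 in HFD livers, 24.1, 16.8 and 16.9 in CLE livers and 21.6, 22.9 and 26.8 in LU livers. The ND livers lay below all HFD and LU livers and overlapped the CLE livers. Plin3 rose by 0.61 in HFD over ND (SE 0.17, adjusted p = 0.0358, limma) and by 0.65 in LU over ND (SE 0.17, adjusted p = 0.0271), and CLE differed from HFD by -0.26 (95% confidence interval -0.63 to 0.11, adjusted p = 0.323). The HFD call is close to the threshold: it was lost after median scaling (0.46, adjusted p = 0.0868), after GC correction (0.48, adjusted p = 0.0737) and without ND mouse 2, ND mouse 4, HFD mouse 12 or HFD mouse 18, with adjusted p up to 0.14. The LU call passed in 16 of 22 alternatives, with differences of 0.41 to 0.80 and adjusted p up to 0.208. It was lost when genes of any level were tested (adjusted p = 0.0529) and without ND mouse 2 or 4 or LU mouse 3 or 8 (adjusted p up to 0.101).

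Plin4 and Plin5 lie side by side on the minus strand of chromosome 17, Plin4 at 56100591-56109803 and Plin5 at 56111601-56117596. Plin4 encodes S3-12, a perilipin best known from white adipose tissue, and Plin5 encodes a perilipin of tissues that burn fat, where it tethers droplets to mitochondria and restrains lipolysis. Their start regions are shown because the mean levels of these neighbours moved in opposite directions from ND to HFD livers, where only the rise of Plin4 was called. Plin5 also has values from both of its annotated starts. The windows are from RefSeq on GRCm38.p6, read 5′ to 3′ on the gene's strand, from 250 bases before to 50 bases after the start, and capitals mark the half-site AGGTCA that many nuclear receptors bind.
Plin4, chr17:56109733-56110032: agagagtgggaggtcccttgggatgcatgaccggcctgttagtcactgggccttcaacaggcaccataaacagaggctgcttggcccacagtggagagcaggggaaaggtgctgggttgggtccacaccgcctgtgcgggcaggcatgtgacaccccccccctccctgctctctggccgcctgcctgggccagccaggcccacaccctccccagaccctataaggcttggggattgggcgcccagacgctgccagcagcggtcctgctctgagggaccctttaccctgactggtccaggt
Plin5 upstream start, chr17:56117499-56117798: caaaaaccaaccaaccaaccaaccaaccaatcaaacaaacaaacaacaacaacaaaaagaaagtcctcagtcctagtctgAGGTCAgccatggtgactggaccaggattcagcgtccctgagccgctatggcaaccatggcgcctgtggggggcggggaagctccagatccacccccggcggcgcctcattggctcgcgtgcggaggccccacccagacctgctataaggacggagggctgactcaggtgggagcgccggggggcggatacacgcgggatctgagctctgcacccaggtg
Plin5 downstream start, chr17:56117249-56117548: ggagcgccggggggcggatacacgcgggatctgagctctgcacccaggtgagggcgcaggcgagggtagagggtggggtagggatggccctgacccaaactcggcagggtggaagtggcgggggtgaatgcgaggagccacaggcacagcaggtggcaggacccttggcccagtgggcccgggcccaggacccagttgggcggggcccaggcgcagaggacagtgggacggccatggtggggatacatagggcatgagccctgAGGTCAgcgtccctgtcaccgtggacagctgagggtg
The windows of both Plin5 starts hold 1 half-site each, at different places, and share 50 bases. AGGTCA, searched on both strands, is found in 16.3% of 32851 such windows, and a direct repeat of it with 1 base between the copies in 0.0396%. The direct repeat and the E-box CACGTG were found in none of these 3 windows. A match is a description of letters and does not show a bound factor.

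Plin4 was 6.05, 5.82 and 6.37 FPKM in ND livers, 32.6, 45.5 and 48.9 in HFD livers, 36.5, 100.5 and 31.6 in CLE livers and 51.8, 33.3 and 60.0 in LU livers. The 3 ND livers were nearly equal, and all 9 livers on the high-fat diet lay at least as high as 31.6 FPKM, with CLE mouse 4 alone above 60.0. The HFD mean was 6.97 times the ND mean, a rise of 2.59 on the log2 scale (SE 0.35, adjusted p = 0.000538, limma), and the rise over ND was 2.82 in CLE (adjusted p = 0.000743) and 2.76 in LU (adjusted p = 0.000979). Against HFD, CLE differed by 0.22 (95% confidence interval -0.53 to 0.97, adjusted p = 0.692) and LU by 0.17 (-0.58 to 0.92, adjusted p = 0.811). Plin4 was called against ND under each of the alternatives tried, with HFD differences of 2.45 to 2.77.

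Most of the Plin4 signal lay on assembled variants of the annotated transcripts. The annotated transcripts alone held 1.38 to 2.01 FPKM in ND livers and 10.8 to 16.1 in HFD livers, which do not overlap either. Assembled transcripts that run from Plin4 into Plin5 held 0.88 to 1.46 FPKM in ND livers and 2.16 to 4.04 in HFD livers, and leaving them out gave 4.36 to 5.17 FPKM in ND and 30.5 to 44.9 in HFD livers. Under the locus name Plin4, where both genes are added, HFD differed from ND by 0.29 (adjusted p = 0.512), so the rise of Plin4 cannot be seen in the sum by name. By that name CLE was called 0.89 above ND (adjusted p = 0.0255), a call that passed in 14 of 25 alternatives and was lost with the highest transcript alone (0.07, adjusted p = 0.865), after median scaling (0.71, adjusted p = 0.0593) and without ND mouse 3, ND mouse 4 or CLE mouse 4 (adjusted p up to 0.0878).

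**Figure D3:**
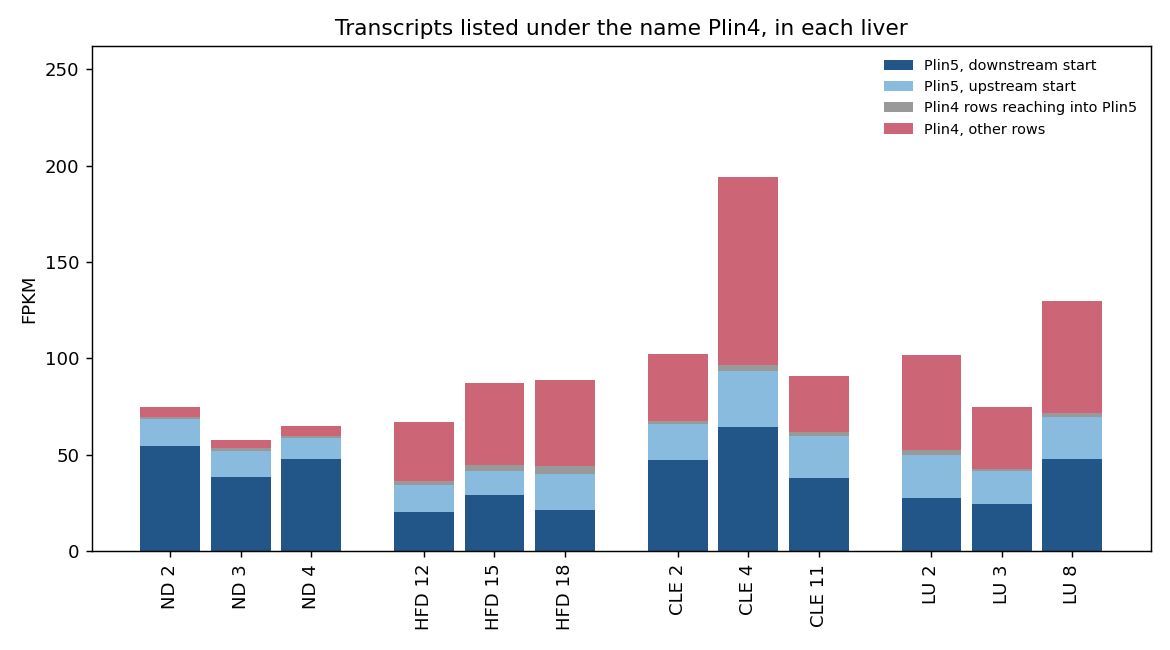
FPKM (vertical axis, from 0) of the transcripts filed under the name Plin4 in each liver (horizontal axis, group and mouse number), stacked by the gene and start they belong to. Plin4 fills little of the bars in ND livers (5.82 to 6.37 FPKM) and 31.6 to 100.5 FPKM elsewhere, and the downstream start of Plin5 is lowest in the HFD livers (20.5 to 28.9 FPKM).

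Plin5 ran the other way. It was 68.8, 52.0 and 58.5 FPKM in ND livers, 34.4, 41.6 and 40.0 in HFD livers, 65.8, 93.7 and 59.5 in CLE livers and 50.1, 41.4 and 69.6 in LU livers. The HFD livers lay below all ND and all CLE livers and overlapped only LU mouse 3. HFD differed from ND by -0.61 (SE 0.20, 95% confidence interval -1.04 to -0.18), which did not pass after adjustment (adjusted p = 0.0645, limma). It passed in 8 of 21 alternatives, among them median scaling (-0.77, adjusted p = 0.0289) and GC correction (-0.75, adjusted p = 0.0213). Over the alternatives the difference was -0.77 to -0.51, with adjusted p up to 0.22 when a mouse was left out.

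Plin5 was the single member called between a supplement and the high-fat diet alone. In CLE against HFD, 1 of 10 genes was called by reference transcript, where 5.66% of all genes tested were called, and 0 of 8 by name, where 6.03% were. At an unadjusted p under 0.05 in the same limma fit there was 1 of 8 by name, the locus name Plin4, where 29.5% of all genes were under it. Plin5 rose by 0.88 in CLE over HFD (SE 0.20, adjusted p = 0.0345), and LU differed from HFD by 0.44 (95% confidence interval 0.01 to 0.87, adjusted p = 0.238). Of 8 hepatocyte markers, 2 were also called higher in CLE against HFD, Apoa1 (0.84, adjusted p = 0.0382) and Serpina1a, a protease inhibitor of plasma (0.83, adjusted p = 0.0308), and Serpina1a also in LU against HFD (0.84, adjusted p = 0.0445), while the list's median was -0.08 in CLE and -0.02 in LU. The part of this in the Plin5 result was not tested. The call of Plin5 in CLE was lost when the 2 groups were fitted alone (adjusted p = 0.0693), after GC correction (0.63, adjusted p = 0.0683) and without HFD mouse 12, 15 or 18 or CLE mouse 4, with adjusted p from 0.0673 to 0.125, while the direction was kept in each of these. CLE differed from LU by 0.44 (95% confidence interval 0.01 to 0.87, adjusted p = 0.977), so the supplements were not shown to differ.

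Within Plin5, the transcript from the downstream start held 38.5 to 54.4 FPKM in ND livers, 20.5 to 28.9 in HFD, 37.9 to 64.4 in CLE and 24.6 to 47.8 in LU livers. The transcript from the upstream start held 10.9 to 14.3 FPKM in ND livers, 12.6 to 18.6 in HFD, 18.4 to 29.3 in CLE and 16.9 to 22.5 in LU livers. HFD livers were thus below ND livers in the first of these transcripts and overlapped them in the second. Both transcripts have a coding sequence of the same length, 1389 bases. Transcripts were not tested one by one.

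Cidea (chromosome 18, 67343604-67367785, plus strand) encodes a CIDE protein that is typical of brown adipose tissue and enlarges droplets. It was 0.42, 0.68 and 0.30 FPKM in ND livers and 32.0, 30.7 and 15.8 in HFD livers. The CLE livers had 28.1, 9.37 and 17.5 FPKM and the LU livers 38.4, 12.9 and 28.1. No ND liver reached 1 FPKM and no other liver was below 9.37. The HFD mean was 56.0 times the ND mean, a rise of 4.15 on the log2(FPKM + 1) scale (SE 0.40, adjusted p = 6.11e-05, limma), which understates the ratio of so low a gene. Cidea also rose over ND in CLE (3.60, adjusted p = 0.000598) and LU livers (4.11, adjusted p = 0.000203), and these calls held in all alternatives tried.

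Between the high-fat groups Cidea varied about 3-fold from mouse to mouse within the CLE and LU groups. CLE differed from HFD by -0.55 (95% confidence interval -1.42 to 0.32, adjusted p = 0.379) and LU by -0.05 (-0.92 to 0.82, adjusted p = 0.96). An assembled Cidea transcript with a later start was listed at 0 to 0.02 FPKM in HFD livers, and held 0.88 to 5.19 FPKM in CLE and 2.54 to 10.5 in LU livers. In ND mice 2 and 3 it was the source of the whole Cidea value, and the annotated transcript was listed at 0 there. The annotated transcript alone held 15.7 to 32.0 FPKM in HFD, 8.49 to 24.3 in CLE and 10.3 to 27.9 in LU livers, and these ranges overlap.

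Cideb (chromosome 14, 55754050-55758458, minus strand) encodes the CIDE protein of hepatocytes, which loads lipid onto very low density lipoprotein. It was the most even of the 10 genes, at 196, 192 and 198 FPKM in ND livers, 236, 200 and 211 in HFD livers, 235, 243 and 279 in CLE livers and 249, 220.5 and 251 in LU livers. Every liver on the high-fat diet stood above every ND liver. HFD differed from ND by 0.14 (95% confidence interval -0.09 to 0.37, adjusted p = 0.447, limma), and Cideb was called only in CLE over ND (0.36, SE 0.11, adjusted p = 0.0269). That call passed in 16 of 25 alternatives. It was lost after median scaling (0.19, adjusted p = 0.262), after GC correction (0.14, adjusted p = 0.40) and with the 2 groups alone (adjusted p = 0.0733). It was also lost without ND mouse 2, 3 or 4 or CLE mouse 11 (adjusted p up to 0.0912).

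Cidec (chromosome 6, 113424634-113435760, minus strand) encodes Fsp27, which fuses droplets in white adipose tissue and in fatty liver. A liver form of Fsp27 starts further downstream and carries extra residues at its N terminus. Its first coding bases are shown because the values separate the 2 forms. They are spliced bases from the GENCODE M21 transcript, read 5′ to 3′ from the start codon at base 113434734 of chromosome 6, with the bases that only the longer form has in capitals.
Cidec, longer form: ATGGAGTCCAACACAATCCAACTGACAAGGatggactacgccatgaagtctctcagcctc
The longer form has 249 codons and the shorter 239, and the extra 30 bases code for 10 residues before the start codon of the shorter form.

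The longer form's annotated transcript held 20.8 to 42.4 FPKM in ND, 42.6 to 48.0 in HFD, 46.1 to 103 in CLE and 31.4 to 85.2 in LU livers, while the annotated transcripts of the shorter form held 0 to 4.75 FPKM over the 12 livers. An assembled 3′ fragment, which does not tell the forms apart, held 28.0% to 51.8% of the sum. Over all transcripts, Cidec was 73.7, 35.6 and 65.7 FPKM in ND livers, 83.4, 72.9 and 73.5 in HFD livers, 185, 120 and 86.4 in CLE livers and 104, 71.9 and 169 in LU livers. The CLE livers all stood above the HFD livers, which overlapped the ND and LU livers.

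Cidec rose in CLE over ND (1.14, SE 0.33, adjusted p = 0.0248, limma) and was not called in HFD over ND (0.45, 95% confidence interval -0.27 to 1.16, adjusted p = 0.414) or in CLE over HFD (0.69, -0.02 to 1.41, adjusted p = 0.181). LU differed from ND by 0.94 (adjusted p = 0.0697) and from HFD by 0.49 (-0.22 to 1.21, adjusted p = 0.406). The call in CLE over ND passed in 16 of 25 alternatives. It was lost without ND mouse 3, CLE mouse 2 or CLE mouse 4 (adjusted p up to 0.0875) and after GC correction (0.83, adjusted p = 0.108). It was also lost with no filter (adjusted p = 0.0551), after median scaling (0.97, adjusted p = 0.0513), in annotated transcripts alone (0.93, adjusted p = 0.0954) and with the highest transcript alone (0.90, adjusted p = 0.111).

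The make-up of the CIDE genes shifted with diet. Cidea was 0.11% to 0.30% of the summed CIDE FPKM in ND livers and 5.25% to 10.1% in HFD livers. Cideb was 72.6% to 84.1% in ND and 65.8% to 70.3% in HFD livers, and Cidec 15.6% to 27.3% in ND and 23.8% to 24.5% in HFD livers. In CLE livers Cidea was 2.52% to 6.27%, which overlaps the HFD range.

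**Figure D4:**
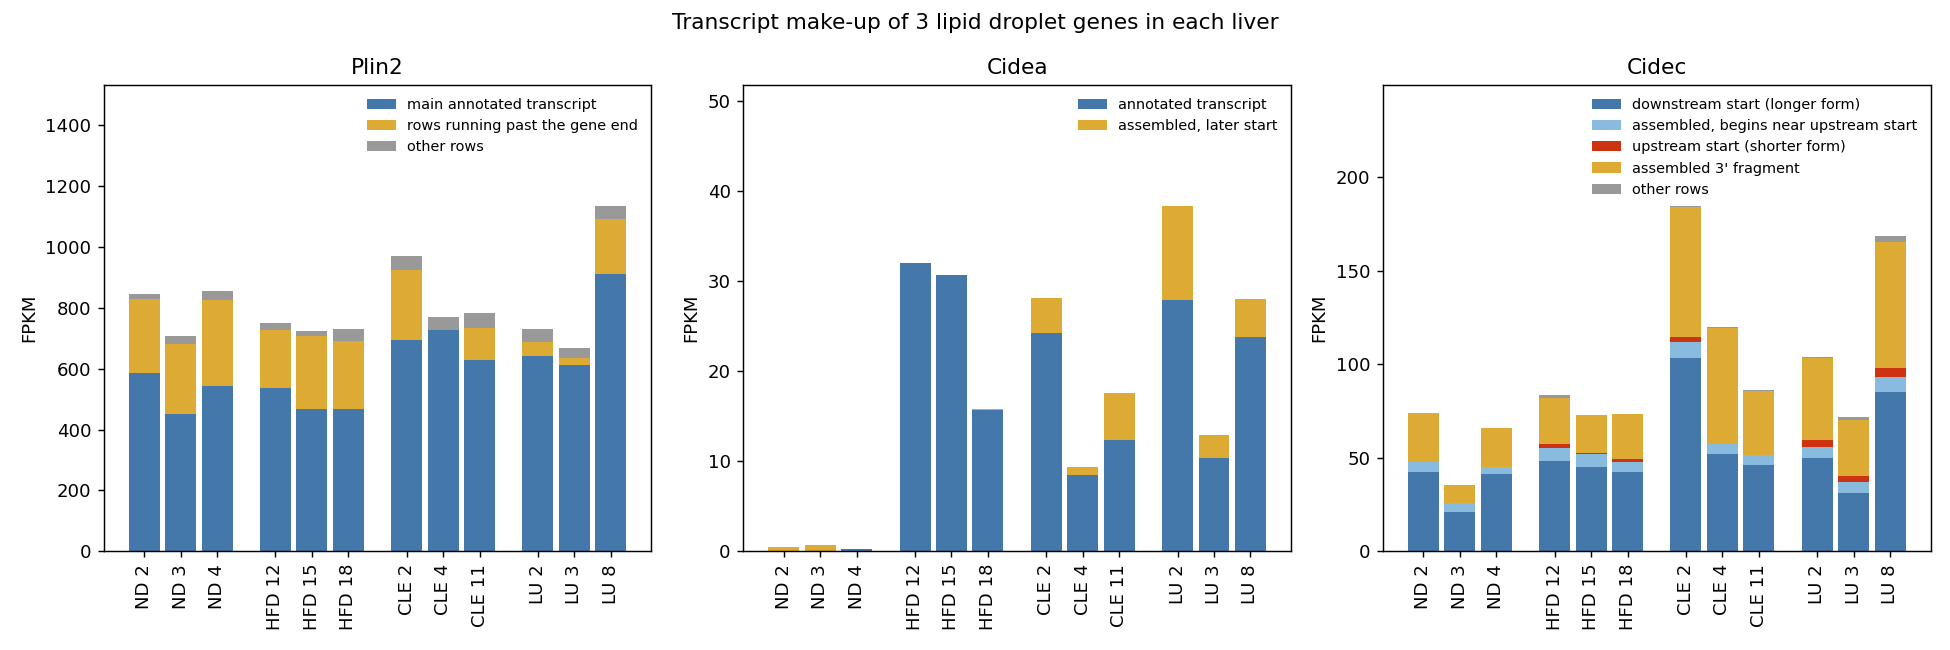
FPKM (vertical axes, from 0) of the transcripts of Plin2, Cidea and Cidec in each liver (horizontal axes, group and mouse number), stacked by transcript class. Transcripts running past the end of Plin2 held 189 to 281 FPKM in the ND and HFD livers and 0 to 230 in the CLE and LU livers, ranges that overlap through CLE mouse 2, and the shorter form of Cidec stays at or below 4.75 FPKM.

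Fitm1 (chromosome 14, 55575617-55576954, plus strand) encodes FIT1, a triacylglycerol-binding protein of the endoplasmic reticulum best known from muscle. It was 21.8, 35.3 and 26.1 FPKM in ND livers, 60.4, 42.0 and 51.3 in HFD livers, 57.0, 55.2 and 54.8 in CLE livers and 69.6, 51.1 and 46.1 in LU livers. No ND liver reached the lowest liver on the high-fat diet. Fitm1 rose by 0.87 in HFD over ND (SE 0.19, adjusted p = 0.0101, limma), by 1.01 in CLE over ND (adjusted p = 0.00444) and by 0.98 in LU over ND (adjusted p = 0.00794). Against HFD the differences were 0.13 in CLE (95% confidence interval -0.27 to 0.54, adjusted p = 0.657) and 0.11 in LU (-0.29 to 0.51, adjusted p = 0.765). The HFD call was lost without ND mouse 2 (0.72, adjusted p = 0.0527), and the CLE call after GC correction (0.59, adjusted p = 0.057). Correction for GC content and length lost the CLE call (0.49, adjusted p = 0.0996) and the LU call (0.57, adjusted p = 0.0816). A block for shared replicate numbers also lost both (adjusted p = 0.0663 in CLE and 0.102 in LU).

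Fitm2 (chromosome 2, 163466379-163472629, minus strand) encodes FIT2, the widely expressed FIT protein. It was 37.2, 41.1 and 38.0 FPKM in ND livers, 27.7, 36.7 and 29.8 in HFD livers, 38.1, 26.7 and 24.4 in CLE livers and 31.4, 32.8 and 34.0 in LU livers. The HFD livers lay below the ND livers by a margin smaller than their own spread, and the difference was -0.30 (95% confidence interval -0.63 to 0.02, adjusted p = 0.217, limma). It was called lower in 1 of 24 alternatives, the correction for GC content and length (-0.43, adjusted p = 0.0442). CLE differed from ND by -0.40 (adjusted p = 0.0657), and this was called lower after median scaling (-0.57, adjusted p = 0.0152), after GC correction (-0.53, adjusted p = 0.0243) and in annotated transcripts alone (-1.27, adjusted p = 0.0207). In ND livers Fitm2 stood above Fitm1 with no overlap, and in HFD livers Fitm1 stood above Fitm2 with no overlap.

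G0s2 (chromosome 1, 193272161-193273217, minus strand) was the most variable of the abundant members. It was 375, 174 and 553 FPKM in ND livers, 375, 281 and 257 in HFD livers, 428, 664 and 502 in CLE livers and 288, 130 and 493 in LU livers. The groups overlapped except CLE and HFD, where all CLE livers stood above all HFD livers. No comparison was called for G0s2: HFD differed from ND by -0.14 (95% confidence interval -1.10 to 0.82, adjusted p = 0.879, limma), CLE from HFD by 0.80 (-0.16 to 1.76, adjusted p = 0.245) and LU from HFD by -0.18 (-1.14 to 0.78, adjusted p = 0.841). In HFD against ND the interval reaches a fall of the size of the Fitm1 rise (0.87), which could therefore not be told from none in G0s2. It does not reach a rise of that size.

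In the order of levels, Plin2, G0s2 and Cideb were the first 3 in every group, and Plin2 stood above G0s2 without overlap in each. G0s2 and Cideb overlapped in ND and LU livers. In ND livers the order then ran Plin5, Cidec, Fitm2, Fitm1, Plin3, Plin4 and Cidea, in which Plin5 overlapped Cidec and Cidec overlapped Fitm2, and no other neighbours overlapped. In HFD livers it ran Cidec, Fitm1, Plin4, Plin5, Fitm2, Cidea and Plin3, and each gene from Fitm1 on overlapped the next. In CLE livers Plin5 held rank 5 and Cidea was last, and in LU livers Plin3 was last.

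Some mice, but not all, stood high or low within their group in many members at once. LU mouse 8 had the highest value of its group in 8 of 10 members and LU mouse 3 the lowest in 7 of 10. LU mouse 2 had the highest value in 2 and the lowest in 2. The same count was not made over all genes, so a shift of a whole library cannot be told from one of these genes. CLE mouse 4 had the highest Plin4, Plin5 and G0s2 of its group and the lowest Cidea. Leaving out any of the 12 mice in turn gave 0 calls in LU against HFD in either sum.

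LU against HFD had 0 members called by limma, both by name (of 8) and by reference transcript (of 10), where 1.03% and 0.993% of all genes tested were called. At an unadjusted p under 0.05 there were 0 of 8 and 1 of 10, the latter being Plin5, where 20.3% and 20.4% of all genes were under it. CLE against LU, the comparison of the extract with its constituent at different doses, also had 0 called in both, against 0.00865% and 0.00834% of all genes. At an unadjusted p under 0.05 there were 1 of 8 (G0s2, with a difference of 0.98) and 2 of 10 (G0s2 and Plin5), where 4.39% and 4.25% of all genes were under it. In CLE against ND 5 of 8 and 5 of 10 were called, where 27% and 26.7% of all genes were, and in LU against ND 2 of 8 and 4 of 10, where 14.9% and 14.6% were. All of these calls were of genes that stood higher on the high-fat diet with a supplement than on the normal diet.

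The other droplet genes were taken from lists by role, summed by reference transcript. Over all genes of that sum, 9.74% were called higher and 2.03% lower in HFD against ND, and the share at an unadjusted p under 0.05 was 26.9% in HFD against ND, 29.4% in CLE against HFD and 20.4% in LU against HFD. Of 6 genes of droplet formation, 1 was called lower in HFD against ND, Gpat4, an acyltransferase that makes lysophosphatidic acid on droplets, which fell from 118 ± 7.58 (SD, n = 3) to 74.1 ± 6.14 FPKM (-0.67, adjusted p = 0.0197, limma). Dgat2, which makes triacylglycerol, was at 156 ± 31.6 and 212 ± 13.3 FPKM and was not called. Pcyt1a, the rate-limiting enzyme of phosphatidylcholine synthesis, fell in CLE against HFD, from 26.4 ± 2.91 to 17.2 ± 3.58 FPKM (-0.60, adjusted p = 0.0382), the 1 call of this list there. In that comparison 5.66% of all genes were called. No gene of the list was called in LU against HFD, where 1 of 6 had an unadjusted p under 0.05, beside 20.4% of all genes. In CLE against ND 1 was called higher (Bscl2, which encodes seipin) and 2 lower (Gpat4 and Pcyt1a). Over all genes 20.6% were called higher and 6.12% lower in that comparison.

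Of 7 genes of lipolysis, 6 had enough signal to be tested, and 1 was called in HFD against ND. Mgll, which splits monoacylglycerol, fell from 173 ± 15.9 to 98.9 ± 7.70 FPKM (-0.80, adjusted p = 0.00555, limma). Pnpla2, which encodes adipose triglyceride lipase, the enzyme that G0s2 inhibits, was at 60.4 ± 5.18 FPKM in ND, 50.6 ± 5.10 in HFD, 77.7 ± 21.4 in CLE and 71.4 ± 9.01 in LU livers and was not called in any comparison. No gene of the list was called in CLE or LU against HFD, with 3 and 2 of 6 at an unadjusted p under 0.05, beside 29.4% and 20.4% of all genes. Pnpla3 was the gene not tested, at 0.14 to 0.20 FPKM by group mean.

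Of 17 coat and surface genes 16 were tested, and 1 was called in HFD against ND. Mettl7a1, a droplet-associated methyltransferase-like gene, rose from 90.6 ± 11.7 to 183 ± 16.0 FPKM (1.01, adjusted p = 0.00207, limma). Mettl7b rose in CLE against HFD, from 377 ± 23.9 to 526 ± 35.3 FPKM (0.48, adjusted p = 0.0416), the 1 call of 16 there, beside 5.66% of all genes. At an unadjusted p under 0.05 there were 9 of 16 in CLE against HFD, beside 29.4% of all genes, and 7 of these 9 were lower in CLE, among them Hsd17b13 and Mettl7a1, opposite to Mettl7b. The median difference of the list was -0.24 in CLE against HFD, beside 0.02 over all genes. No gene was called in LU against HFD, where 5 of 16 had an unadjusted p under 0.05, beside 20.4% of all genes. Hsd17b13, a droplet enzyme of hepatocytes, was at 333 ± 32.3 FPKM in ND and 438 ± 47.0 in HFD livers and was not called. In HFD against ND the median difference was 0.08 over the formation genes tested, -0.16 over lipolysis and 0.17 over coat and surface, beside 0.11 over all genes.

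Of 7 transcription factors known to act on droplet genes, 2 were called higher in HFD against ND, beside 9.74% of all genes. None was called in CLE or LU against HFD. At an unadjusted p under 0.05 there were 2 of 7 in each (limma), beside 29.4% of all genes in CLE and 20.4% in LU. Srebf1, the lipogenic factor, rose from 13.2 ± 1.93 to 45.8 ± 5.21 FPKM (1.72, adjusted p = 0.00942). Pparg, which drives Cidea, Cidec and Plin4 in adipose tissue, rose from 7.53 ± 1.37 to 12.8 ± 1.79 FPKM (0.70, adjusted p = 0.0237). Ppara, the fatty acid sensor of hepatocytes, was at 74.5 ± 13.4 FPKM in ND and 67.5 ± 11.4 in HFD livers and was not called, and it fell in LU against ND to 47.9 ± 7.66 FPKM (-0.62, adjusted p = 0.0267).

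Markers of other cell types were set beside these genes. Of 10 adipocyte markers 9 were in the table and 3 were tested. Their summed level was 19.3 to 23.0 FPKM in ND livers, 41.1 to 41.8 in HFD, 34.2 to 72.3 in CLE and 45.5 to 63.9 in LU livers. Nearly all of it was Fabp4, Lipe and Adrb3, and Fabp4 rose in HFD from 12.3 ± 2.14 to 30.3 ± 2.07 FPKM (1.24, adjusted p = 0.0168, limma). The defining genes Adipoq and Plin1 were near 0, at 0.03 and 0.02 FPKM by mean in ND, 0.01 and 0.01 in HFD, 0.10 and 0.02 in CLE and 0.59 and 0.22 in LU livers. Lep was listed at 0 in ND, HFD and CLE livers and at 0.14 to 0.19 FPKM in LU livers. Each of these defining genes was higher in every LU liver than in any other liver. Plin4 and Cidea were at 42.3 and 26.2 FPKM in HFD livers. The part of adipose cells in the levels of the members was not tested in any group.

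Of 4 brown adipocyte markers, Ucp1, the defining gene, was listed at 0 in all 12 livers, and the summed level, nearly all Elovl3, was 323 to 466 FPKM in ND and 126 to 168 in HFD livers. Skeletal muscle markers summed to 0.35 to 1.06 FPKM over the 12 livers, beside 21.8 to 69.6 FPKM of Fitm1. The 6 macrophage and Kupffer cell markers summed to 87.1 to 114 FPKM in ND and 131 to 201 in HFD livers. In HFD against ND 2 of 6 were called higher, beside 9.74% of all genes. These were Cd68 (3.30 ± 0.28 to 8.94 ± 1.17 FPKM, adjusted p = 0.0101) and Csf1r (8.35 ± 0.42 to 14.2 ± 2.54 FPKM, adjusted p = 0.0439, both limma). The macrophage markers Adgre1, Clec4f and Lyz2 had higher means in HFD and Marco a lower one (5.36 ± 5.89 to 2.70 ± 0.43 FPKM), none of them called. The part of these cells in the rise of Plin3, Plin4, Cidea and Fitm1 was not tested.

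The genes whose profile over the 12 livers was most like that of a member were found among 7240 genes by name, or 7377 by reference transcript, with a mean of at least 5 FPKM. Likeness is the root mean square difference between profiles scaled to an SD of 1, so that 0 is the same shape. Mrpl45 (0.20), Anxa2 (0.23) and Tmem109 (0.25) were nearest to Cidea, and Arsa (0.20), Aox1 (0.25) and Tax1bp3 (0.25) to Plin4. Lmo4 (0.32), Slc22a5 (0.37) and P3h1 (0.38) were nearest to Plin5, and Rhoc (0.39), Ist1 (0.43) and Rhod (0.44) to Cidec. By name, G0s2 came nearest to Cks2 (0.43), Tbx3 (0.44) and Ppara (0.49), and Plin2 to a row named pol (0.33), Tlr12 (0.52) and Tmed4 (0.62). By reference transcript, Cbr1 (0.51) took the place of Ppara beside G0s2. In that sum Plin2 came nearest to Tlr12 (0.52), Tmed4 (0.62) and Frmd4b (0.625). No test was made of these likenesses.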

How the data were processed

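Liver mRNA of 12 mice was sequenced as paired reads. The authors aligned the reads with TopHat2 2.0.12 and Bowtie2 2.2.3 and quantified transcripts with Cufflinks 2.2.1, per the labels, and deposited them as FPKM in a table of 152210 rows, 78786 known and 73424 assembled. The genome build is not given in the sources used here. Of the known rows, 87.6% have the start and end of GENCODE M21 on GRCm38. Whether the deposited FPKM values include the normalization factors named in the methods is not stated. Read counts are not recoverable from these estimates, so depth is unknown and no counting interval was made.

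Values were summed by gene name, the main sum (11566 genes tested), and, as a choice made after the table was seen, by reference transcript (11986 genes tested), which leaves out 9651 rows with no M21 gene. The test was limma's (version 3.58.1, in R 4.3.3), applied to log2(FPKM + 1) with its variance trend, 1 coefficient per group, all 12 mice in 1 fit (12.8 and 12.7 degrees of freedom), a minimum mean of 0.5 FPKM, and two-sided Benjamini-Hochberg adjustment over all genes tested. The study's count-based test was replaced because the values are FPKM. The fit was tested on simulated data. Groups came from the labels of the samples, in which CLE is written CLL. The labels show separate mice. All 10 members are named. The other genes named are those called within lists by role, members of those lists with a known place in the pathway, and the 3 nearest profiles per gene. The members and lists were chosen with earlier results of these data known. Promoter windows came from RefSeq on GRCm38.p6, which held 9 of the 10 members in 11 windows.

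Alternatives were a pseudocount of 0.1, no filter, a minimum mean of 5 FPKM, median-of-ratios and quantile scaling, 2 groups alone, no variance trend, the highest transcript alone, known transcripts alone, no opposite-strand or intronic rows, each mouse left out, and a replicate block. Added after seeing the data were the sum by reference transcript and corrections for GC content and for GC content with length (lowess, span 0.3).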

Additional observations from a re-analysis of the deposited data

How the results depend on the processing

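Counts of members called are given by gene name (of 8) and by reference transcript (of 10). By name, 5 genes called in CLE against ND became 3 with no filter on low values, 3 after median-of-ratios scaling, 2 after GC correction, 2 after correction for GC content and length and 2 with the replicate block. Not all of these were among the 5. Fitm2 was gained, as lower in CLE, after median-of-ratios scaling (-0.57), GC correction (-0.53) and correction for GC content and length (-0.49). After either GC correction Cideb, Cidec, Fitm1 and Plin4 were lost, and Cidea alone was left of the 5. In LU against ND by name, 2 became 1 after correction for GC content and length and 1 with the replicate block. By reference transcript, the 1 call in CLE against HFD became 0 with no filter, with the 2 groups alone, after GC correction and after correction for GC content and length. By reference transcript, 5 in CLE against ND became 3 after GC correction, 3 after correction for GC content and length and 3 with the replicate block, and 4 in LU against ND became 2 with the replicate block. The cause was not tested.

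Leaving out each mouse in turn gave, by name, 1 to 2 calls in HFD against ND (1 without ND mouse 2), 2 to 5 in CLE against ND (2 without ND mouse 3, 3 without ND mouse 4 or CLE mouse 4), 2 to 3 in LU against ND and 0 to 0 in the other comparisons. By reference transcript it gave 2 to 5 in HFD against ND (2 without ND mouse 2 or HFD mouse 12), 0 to 1 in CLE against HFD (0 without CLE mouse 4 or any of the 3 HFD mice), 3 to 5 in CLE against ND (3 without ND mouse 3), 3 to 4 in LU against ND and 0 to 0 in LU against HFD and CLE against LU. The other alternatives kept each count within 1.5 times, and no called value changed sign. A kept count can still hold other genes. In HFD against ND by reference transcript, median-of-ratios scaling and GC correction lost Plin3 (higher) and gained Plin5 (lower).

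Samples share replicate numbers across ND, CLE and LU, and HFD shares none. Deviations of same-numbered mice correlated at -0.259 to 0.183 over 5 pairs. Mice with different numbers were not compared in this way, so these values cannot decide whether a shared number marks a pairing. The main fit took the mice as unpaired, and the block leaves 2 residual degrees of freedom. FPKM estimates carry no depth, so no bound can be given for values near 0, and 3 mice per group leave wide intervals for G0s2 and Cidec.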
